A study of Mus musculus with 4 samples.

Results

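The 9 genes described here take up, store, export and sense iron: Tfrc, Slc11a2, Steap3, Fth1, Ftl1, Ncoa4, Slc40a1, Aco1 and Ireb2. They were picked by gene symbol from a table of 22138 genes, and each symbol matched 1 row. RNA was sequenced from TT2 cells (mouse embryonic stem cells, C57BL/6xCBA, labelled female) grown feeder-free with serum and LIF, a cytokine that keeps these cells undifferentiated. The 2 groups were Control siRNA (n = 2) and Hnrnpk siRNA (n = 2), called biological replicates in the series' design text. Nothing states that they came from separate cultures, so p-values measure the spread between these libraries, which may be technical. Both groups had the same handling: siRNA at 100 nM, the same siRNA at 50 nM after 24 hours, and RNA taken about 72 hours later. Hnrnpk encodes hnRNP K, a protein that binds RNA and DNA. The title of the series places it in silencing by SETDB1, so the comparison asks what its knockdown did to transcript levels. The cells are 1 line, and the siRNA sequences were not used here.

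Most cells take up iron as transferrin, which the transferrin receptor carries into endosomes, where iron is reduced and pumped to the cytosol. Iron that is not used at once is stored inside ferritin, a shell built of heavy and light chains, and is released when a cargo receptor brings ferritin to the lysosome. The iron regulatory proteins bind a hairpin, the iron responsive element, when iron is scarce. Bound in a 5′ UTR the hairpin blocks translation, and bound in a 3′ UTR it protects the mRNA from decay, so iron uptake and storage are set in opposite directions. That switch acts on translation for ferritin, which RNA levels do not show.

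The hairpins are shown because they tie the storage, export and uptake genes to the sensors. UTRs of GENCODE M21 transcripts were searched for a bulged C, 5 bases, the loop CAGTGN and 5 bases that pair with the first 5 (G may pair with T), with at least 3 of 4 pairs below the bulge. On the transcript strand, in the longest protein-coding transcript, 4 of the 9 genes held such a site. Capitals mark the 6-base loop, and bases are written 5′ to 3′ as DNA.
Fth1, 5′ UTR: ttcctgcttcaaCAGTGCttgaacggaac
Ftl1, 5′ UTR: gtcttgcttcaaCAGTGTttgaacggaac
Slc40a1, 5′ UTR: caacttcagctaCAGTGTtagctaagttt
Tfrc, 3′ UTR, site 1: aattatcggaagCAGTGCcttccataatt
Tfrc, 3′ UTR, site 2: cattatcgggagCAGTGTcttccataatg
Tfrc, 3′ UTR, site 3: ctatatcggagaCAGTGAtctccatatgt
Tfrc, 3′ UTR, site 4: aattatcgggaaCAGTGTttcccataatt
On GRCm38 these lie at chr19:9982732-9982760 (Fth1, plus strand), chr7:45459779-45459807 (Ftl1, minus strand) and chr1:45925465-45925493 (Slc40a1, minus strand). The Tfrc sites lie on the plus strand at chr16:32631219-32631247, chr16:32631598-32631626, chr16:32631663-32631691 and chr16:32631710-32631738.

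A paired site of this form was found in 6 of 20702 5′ UTRs (0.029%) and 18 of 20969 3′ UTRs (0.086%) of protein-coding genes, and no gene but Tfrc held more than 1. The loops start 126, 164 and 218 bases before the start codon in Fth1, Ftl1 and Slc40a1. In Tfrc they start between 895 and 1386 bases into a 3′ UTR of 2458 bases. The other 5′ UTRs were those of Alas2, Ppp1r1b and a Ftl1 copy, Ftl1-ps1. A match is a description of letters and pairing, and a gene without a match says only that this pattern is not in its UTRs.

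The values were RPKM, mapped reads scaled to transcript length and library size. Values above 0 were listed for 17566 to 18077 genes per library, and RPKM summed to 359659 and 362836 after control siRNA and to 377825 and 390467 after Hnrnpk siRNA. Low values gave relative depths of 0.982, 0.891 and 0.882 for control replicate 2 and Hnrnpk siRNA replicates 1 and 2, with control replicate 1 set to 1. Hnrnpk, the targeted gene, had 236 and 226 RPKM with control siRNA against 68.0 and 70.5 RPKM with its own siRNA, the direction the labels imply. Its level is uncertain because 50.5% of its transcript is shared with other genes. All 12 embryonic stem cell markers examined passed the filter on low values, at a summed 4165 to 4304 RPKM after control siRNA and 4924 to 5244 RPKM after Hnrnpk siRNA. Of these markers 2 were called higher and 5 lower, with a median log2 change of -0.15. Dppa5a, which shares 86.4% of its transcript with other genes, rose from 1298 to 2308 RPKM (group means). Nanog, the other marker called higher, rose from 197 to 348 RPKM, and Utf1, called lower, fell from 988 to 806 RPKM (group means). Dppa5a was left out after its values were seen. The sums without it were 2983 and 2888 RPKM after control siRNA and 2760 and 2793 RPKM after Hnrnpk siRNA. Changes below are differences in log2(RPKM + 0.5), tested with limma over 12486 genes whose mean was at least 0.5 RPKM. A gene is called where its p, adjusted over all of these by Benjamini-Hochberg, is under 0.05.

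After Hnrnpk siRNA the ferritin transcripts about doubled, Ncoa4 and Slc40a1 rose, Aco1 fell to 0.664 of its level, and Tfrc, Ireb2 and Slc11a2 fell slightly. All 9 genes passed the filter on low values. Of them 4 were called higher, 4 lower and 1 (Steap3) was not called, beside 67.2% of all tested genes called, 32.2% higher and 35.0% lower. The 2 groups did not overlap for 8 of the 9, beside 84.7% of all tested genes. The median log2 change was 0.011 for the 9 genes and -0.015 for all tested genes. With 2 libraries a group, an exact permutation test of 1 gene cannot go below p = 0.333, so the calls lean on the spread shared between genes in limma's fit.

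**Figure D1:**
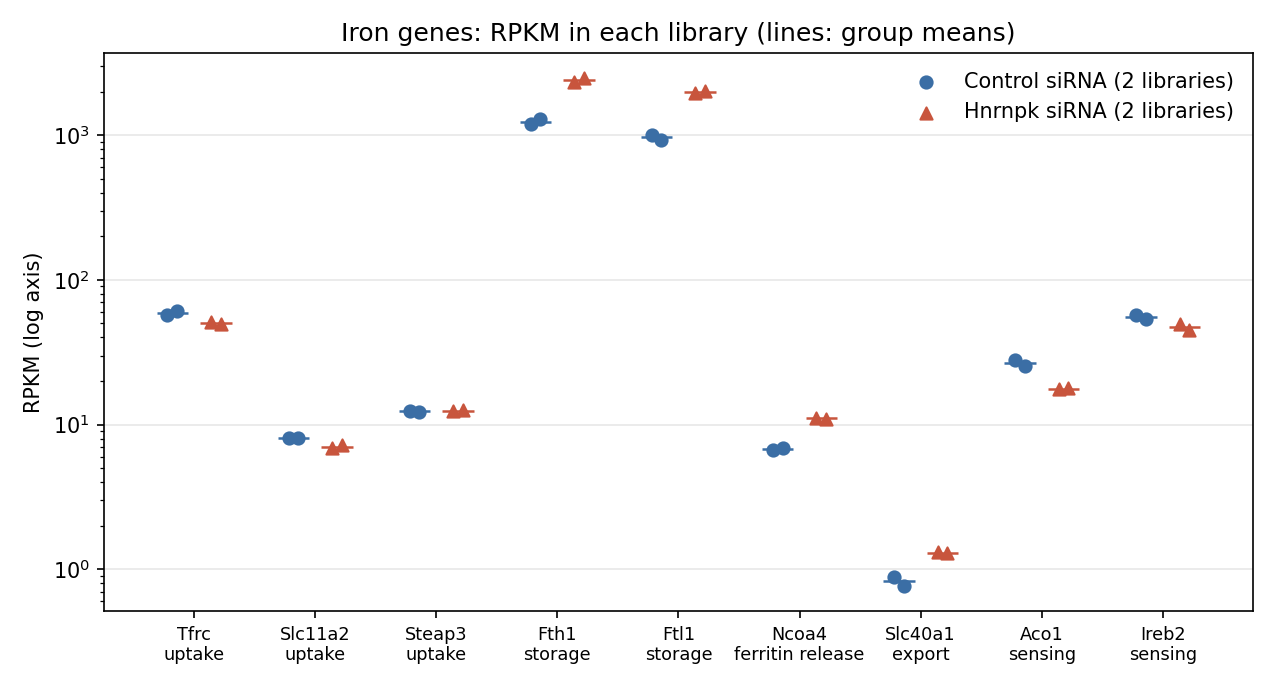
RPKM (log axis) of the 9 iron genes in each of the 4 libraries, with blue circles for control siRNA, red triangles for Hnrnpk siRNA and short lines for group means. Fth1 and Ftl1 stand far above the rest, at 930 to 2469 RPKM, and Slc40a1 lies lowest, at 0.771 to 1.31 RPKM.

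Fth1 and Ftl1, the ferritin heavy and light chains, rose most. The heavy chain carries the ferroxidase activity that oxidizes iron for storage, and the light chain helps the mineral core form. Fth1 (ENSMUSG00000024661, GRCm38 chromosome 19, 9980598 to 9985098) stood at 1194 and 1289 RPKM after control siRNA and at 2338 and 2469 RPKM after Hnrnpk siRNA. Both Hnrnpk siRNA libraries were high and the groups were far apart. The means were 1241 ± 66.9 and 2404 ± 92.9 RPKM (SD, n = 2 each), a ratio of 1.94. The log2 change was 0.95 (95% interval 0.76 to 1.15; limma adjusted p = 1.18e-05), and 90.2% of tested genes changed by less. Under quantile normalization it was 0.62 and still called, the only alternative that moved it by over 1.5 times.

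Ftl1 (ENSMUSG00000050708, chromosome 7, 45457944 to 45459884) went from 1011 and 930 RPKM to 1964 and 2034 RPKM. Again both libraries of one group lay above both of the other. The means were 970 ± 57.3 and 1999 ± 49.0 RPKM (SD, n = 2 each), a ratio of 2.06, and the log2 change was 1.04 (95% interval 0.85 to 1.23; limma adjusted p = 5.56e-06). Ftl1 was the 1 gene of the 9 to be called with a change of at least 1, beside 8.51% of all tested genes; its change was below 1 under quantile normalization (0.76), with equal RPKM sums (0.96) and without control replicate 2 (0.98), where Fth1 was at 1.01. Its level is uncertain, because the whole transcript (100%) is shared at 95% identity or more with 13 annotated genes, mostly processed pseudogenes and miRNA entries. The 1 of these listed in the table, Ftl1-ps1 (there Gm10116), was at 0.642 to 0.962 RPKM. No such copy of Fth1 was found.

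The 2 chains kept about the same proportion. Fth1 over Ftl1 was 1.18 and 1.39 after control siRNA against 1.19 and 1.21 after Hnrnpk siRNA, and the groups overlap. By mean level over all genes, Fth1 went from rank 12 to rank 3 and Ftl1 from rank 20 to rank 5. Together they took 0.613% and 0.611% of all RPKM after control siRNA, against 1.14% and 1.15% after Hnrnpk siRNA.

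Ncoa4, the cargo receptor that takes ferritin to the lysosome to free its iron, rose as well. Ncoa4 (ENSMUSG00000056234, chromosome 14, 32159865 to 32179855) was at 6.63 and 6.92 RPKM after control siRNA and at 11.1 and 10.9 RPKM after Hnrnpk siRNA. The groups did not overlap and the libraries within each lay close together. The means were 6.77 ± 0.202 and 11.04 ± 0.157 RPKM (SD, n = 2 each), with a ratio of 1.63 and a log2 change of 0.67 (95% interval 0.50 to 0.83; limma adjusted p = 3.15e-05). A processed pseudogene, Gm6768, matches 46.2% of the transcript at 99.9% identity, so the level is uncertain.

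Slc40a1, or ferroportin, is the exporter that carries iron out of cells. Slc40a1 (ENSMUSG00000025993, chromosome 1, 45908068 to 45926523) was low throughout, at 0.880 and 0.771 RPKM after control siRNA and at 1.31 and 1.29 RPKM after Hnrnpk siRNA. It was the lowest of the 9 genes in every library, and higher in both Hnrnpk siRNA libraries than in either control. The means were 0.826 ± 0.0768 and 1.30 ± 0.0169 RPKM (SD, n = 2 each), and the log2 change was 0.44 (95% interval 0.23 to 0.66; limma adjusted p = 0.00238). The added 0.5 RPKM compresses a change at this level: with 0.1 RPKM added the log2 change was 0.60, and the ratio of the means was 1.58.

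The transcripts of both iron regulatory proteins, which bind the hairpins, fell; protein was not measured. Aco1 encodes IRP1, which holds an iron-sulfur cluster and acts as cytosolic aconitase when iron is plentiful and binds RNA when the cluster is lost. Aco1 (ENSMUSG00000028405, chromosome 4, 40143081 to 40198338) went from 27.8 and 25.5 RPKM to 17.6 and 17.8 RPKM. Both Hnrnpk siRNA libraries were well below the controls and nearly equal. The means were 26.6 ± 1.67 and 17.7 ± 0.185 RPKM (SD, n = 2 each), a ratio of 0.664, and the log2 change was -0.58 (95% interval -0.73 to -0.42; limma adjusted p = 6.11e-05).

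Ireb2 encodes IRP2, which is degraded when iron is plentiful. Ireb2 (ENSMUSG00000032293, chromosome 9, 54863789 to 54912530) had 57.2 and 53.7 RPKM after control siRNA and 49.7 and 45.3 RPKM after Hnrnpk siRNA. The groups did not overlap, but the gap between them was about as wide as the spread within each. The log2 change was -0.22 (95% interval -0.38 to -0.06; limma adjusted p = 0.0181). It was not called without control replicate 1 (-0.18, adjusted p = 0.0806) or without Hnrnpk siRNA replicate 2 (-0.15, adjusted p = 0.140), and was -0.40 when each library's GC trend was removed, over a range of adjusted p from 0.000519 to 0.140. Ireb2 over Aco1 was 2.05 and 2.11 after control siRNA against 2.83 and 2.54 after Hnrnpk siRNA; a difference between the 2 falls was not tested.

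**Figure D2:**
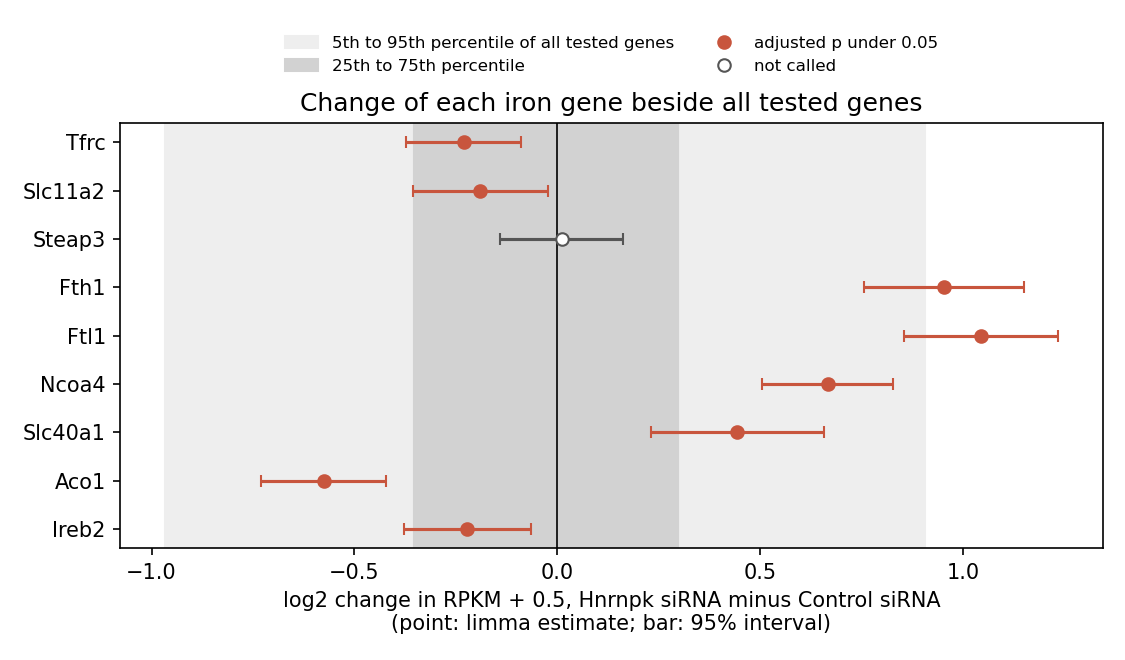
Log2 change of each iron gene (Hnrnpk siRNA minus control siRNA, RPKM + 0.5) with its 95% interval from limma, over grey bands for the middle of all tested genes (25th to 75th percentile, -0.35 to 0.30; 5th to 95th, -0.97 to 0.91). Fth1 and Ftl1 lie beyond the 95th percentile, while Tfrc, Slc11a2, Steap3 and Ireb2 lie inside the inner band.

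The uptake genes moved little. Tfrc encodes transferrin receptor 1, the main entry for iron. Tfrc (ENSMUSG00000022797, chromosome 16, 32608920 to 32632794) was at 57.5 and 60.9 RPKM after control siRNA and at 51.2 and 49.6 RPKM after Hnrnpk siRNA. Both Hnrnpk siRNA libraries were lower, with group means of 59.2 ± 2.37 and 50.4 ± 1.12 RPKM (SD, n = 2 each). The log2 change was -0.23 (95% interval -0.37 to -0.09; limma adjusted p = 0.00889), and 37.4% of tested genes changed by less. It was -0.39 with GC trends removed, and without Hnrnpk siRNA replicate 2 it was -0.21 and not called (adjusted p = 0.0511), over a range of adjusted p from 0.000310 to 0.0511.

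Steap3 encodes the endosomal reductase that turns ferric into ferrous iron, and Slc11a2 (DMT1) the transporter that then moves it to the cytosol. Steap3 (ENSMUSG00000026389, chromosome 1, 120190757 to 120272705) was at 12.5 and 12.3 RPKM after control siRNA and at 12.3 and 12.6 RPKM after Hnrnpk siRNA. The groups overlap, and the log2 change was 0.01 (95% interval -0.14 to 0.16; limma adjusted p = 0.896). Slc11a2 (ENSMUSG00000023030, chromosome 15, 100387898 to 100425072) was at 8.10 and 8.12 RPKM after control siRNA and at 6.86 and 7.23 RPKM after Hnrnpk siRNA. The log2 change was -0.19 (95% interval -0.36 to -0.02; limma adjusted p = 0.0437), just past the threshold. That call did not hold without any 1 of the 4 libraries, without a filter on low values, or under median ratio or quantile scaling, over a range of adjusted p from 0.00823 to 0.262. An antisense neighbour that overlaps Slc11a2, Gm5475, was at 0.00239 to 0.00950 RPKM.

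The order of levels per length was the same at the top and changed lower down. After control siRNA it ran Fth1, Ftl1, Tfrc, Ireb2, Aco1, Steap3, Slc11a2, Ncoa4 and Slc40a1. There Tfrc, at 57.5 and 60.9 RPKM, lay narrowly above Ireb2, at 57.2 and 53.7 RPKM. The values of these genes overlap after Hnrnpk siRNA. Ncoa4 lay below Slc11a2 in both control libraries and above it in both Hnrnpk siRNA libraries. Fth1 over Tfrc, storage set against uptake, was 20.8 and 21.2 after control siRNA against 45.7 and 49.8 after Hnrnpk siRNA.

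Among the genes that matched the hairpin pattern, Fth1, Ftl1 and Slc40a1 (5′ UTR) were called higher and Tfrc (3′ UTR, the sites printed above) lower. Slc11a2, Steap3, Ncoa4, Aco1 and Ireb2 had no match, which says nothing about hairpins of another form. Among the other 5′ UTR genes, Ppp1r1b was called lower (log2 change -0.61, limma adjusted p = 0.000942), Ftl1-ps1 was not called (-0.24, adjusted p = 0.0642), and Alas2 was too low to test. Of 16 other listed genes with a single 3′ UTR site, 5 were called higher, 5 lower and 3 not called, and 3 were too low to test. Over all tested genes 32.2% were called higher and 35.0% lower.

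The gene whose change was largest, Ftl1, was compared with every other tested gene by the distance between their centred log2 values over the 4 libraries. The 5 nearest were Ctsa, Calr, Rcsd1, Atxn7l3b and Hes1, with distances from 0.015 to 0.042 and ratios of group means from 2.05 to 3.06. Ctsa, a lysosomal protease, went from 21.8 and 20.3 RPKM to 42.8 and 44.5 RPKM. Over 4 libraries in 2 groups such likeness is common: 1284 of 12485 genes had a Pearson's r over 0.99 with Ftl1.

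The wider iron pathway was read from 9 other lists holding 106 tested genes. Of these 37 were called higher, 24 lower and 45 not called, with a median log2 change of 0.064. That is 57.5% called, 34.9% higher and 22.6% lower, beside 67.2%, 32.2% and 35.0% of all tested genes. Scaling to equal RPKM sums multiplies each library by 1 factor, and it moved the median change of all tested genes from -0.015 to -0.095. The lists then had 31 genes called higher and 37 lower, and all tested genes 3291 and 5156, against 4025 and 4371 as reported. Splits under that scaling are given below as "equal sums" where they moved by over 10 percentage points.

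**Figure D3:**
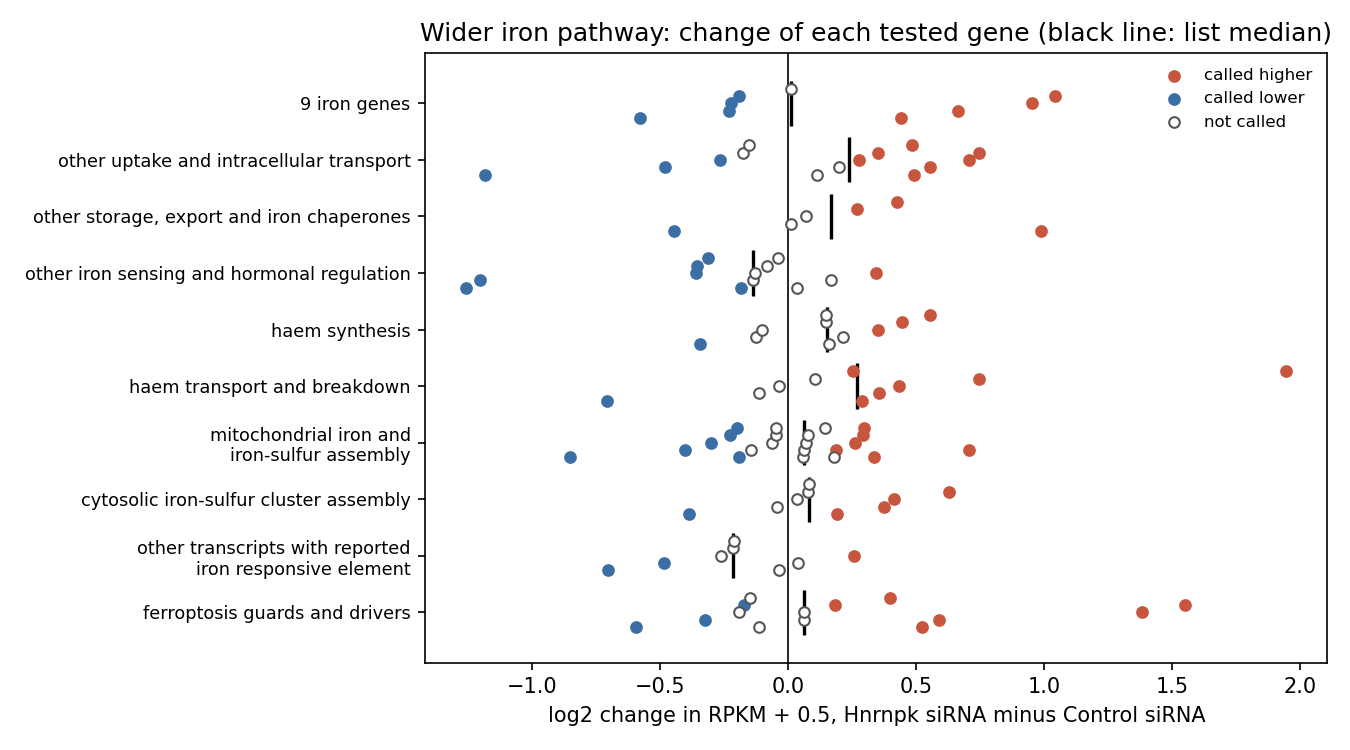
Log2 change (Hnrnpk siRNA minus control siRNA, RPKM + 0.5) of each tested gene of the 9 iron genes and the 9 other lists, filled red or blue where called higher or lower and open where not called, with a black line at each list's median. List medians lie between -0.21 and 0.27, and Hmox1 at 1.95 is the furthest point.

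Haem transport and breakdown held the largest single change. Hmox1, haem oxygenase 1, which opens the haem ring and frees its iron, was at 80.9 and 96.4 RPKM after control siRNA and at 329 and 355 RPKM after Hnrnpk siRNA. Both Hnrnpk siRNA libraries were over 3 times either control, and limma gave a log2 difference of 1.95 ± 0.0879 (SE; adjusted p = 1.95e-07). Bach1, a haem-binding repressor of Hmox1 and of the ferritin genes, rose from 6.05 ± 1.36 to 10.4 ± 0.0764 RPKM, and Pgrmc1, a haem-binding membrane protein, from 46.7 ± 4.42 to 63.2 ± 4.41 RPKM (SD, n = 2 each). Abcg2, an exporter that carries porphyrins, fell from 11.5 ± 0.563 to 6.82 ± 0.134 RPKM (SD, n = 2 each). In all, 6 of 10 tested members were called higher and 1 lower (equal sums: 5 and 2), with a median of 0.27.

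In haem synthesis 3 of 10 tested members were called higher and 1 lower (equal sums: 3 and 3; without control replicate 1: 5 and 1), with a median of 0.15. Alas1, the first and rate-limiting enzyme outside red cells, rose from 13.2 ± 0.130 to 19.7 ± 1.04 RPKM (log2 change 0.56; ± is the SD, n = 2 each). Ppox, the last enzyme but one, and Clpx, a mitochondrial unfoldase that acts on the first, had log2 changes of 0.45 and 0.35. The red-cell enzyme Alas2 was at 0.0168 to 0.0814 RPKM.

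Other uptake and transport genes were called higher in 7 of 14 and lower in 3 (equal sums: 7 and 5; no filter on low values: 8 and 6), with a median of 0.24. Mcoln1, a lysosomal channel that lets out iron, rose by a log2 change of 0.71, and Snx3, a sorting protein that recycles the transferrin receptor, went from 171 ± 0.991 to 251 ± 3.25 RPKM (SD, n = 2 each). Steap1, a relative of Steap3, rose from 6.39 ± 0.614 to 11.04 ± 0.623 RPKM (SD, n = 2 each). Slc11a1, the phagosomal relative of Slc11a2, fell from 3.11 ± 0.456 to 1.09 ± 0.222 RPKM (log2 change -1.18; ± is the SD, n = 2 each). Tf and Tfr2 were not analysed here.

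Of the other storage, export and chaperone genes, 3 of 6 tested were called higher and 1 lower, with a median of 0.17. Pcbp1 and Pcbp2, which hand iron to ferritin and share the KH domain with hnRNP K, were not called: Pcbp1 had 479 ± 6.11 and 483 ± 3.93 RPKM and Pcbp2 500 ± 5.06 and 525 ± 0.649 RPKM (SD, n = 2 each). Pcbp2 shares 56.6% of its transcript with other genes. The glutaredoxin Glrx3, a carrier of iron-sulfur clusters, rose (log2 change 0.43) and its partner Bola2 fell (-0.45). Nedd4l, a ubiquitin ligase of membrane transporters, rose from 3.71 ± 0.286 to 7.85 ± 0.355 RPKM (log2 change 0.99; ± is the SD, n = 2 each).

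In the list of iron sensing and hormonal control, 1 of 13 tested members was called higher and 6 lower, with a median of -0.14 (median ratio scaling: 2 and 6). The split was 3 and 4 with no filter on low values, 2 and 2 without Hnrnpk siRNA replicate 1, and 0 and 3 without Hnrnpk siRNA replicate 2. Fam132b, the hormone erythroferrone, fell from 3.83 ± 0.348 to 1.31 ± 0.0473 RPKM, and Hfe2, the BMP coreceptor hemojuvelin, from 2.83 ± 0.593 to 0.947 ± 0.249 RPKM (SD, n = 2 each), and the log2 changes were -1.26 and -1.20. Acvr1, a BMP receptor, and its ligand Bmp6 each had a log2 change of -0.36, and the ubiquitin ligase Rnf25 one of 0.34. Fbxl5, the iron-binding subunit that marks IRP2 for degradation, was not called, at 8.95 ± 0.0931 and 8.71 ± 0.156 RPKM (SD, n = 2 each).

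Of the mitochondrial iron and iron-sulfur genes, 6 of 22 tested members were called higher and 6 lower (equal sums: 4 and 7; GC trends removed: 5 and 3), with a median of 0.062. The split was 5 and 3 without Hnrnpk siRNA replicate 1 and 3 and 5 without Hnrnpk siRNA replicate 2. Slc25a37, mitoferrin 1, which brings iron into mitochondria, fell from 6.29 ± 0.296 to 3.27 ± 0.0546 RPKM (log2 change -0.85; ± is the SD, n = 2 each). Fdxr, which passes electrons to ferredoxin for cluster assembly, rose from 14.04 ± 0.611 to 23.3 ± 0.509 RPKM (log2 change 0.71; ± is the SD, n = 2 each). Isca1, a late assembly factor, had a log2 change of 0.34, with 99.7% of its transcript shared with other genes. In the cytosolic assembly list 4 of 9 were called higher and 1 lower, with a median of 0.084: Narfl and Fam96b, which act in the targeting of clusters, had log2 changes of 0.63 and 0.41, and Mms19, their partner, one of -0.38.

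Other transcripts reported to hold an iron responsive element were called higher in 1 of 8 and lower in 2 (equal sums: 0 and 5; GC trends removed: 0 and 3), with a median of -0.21. The split was 0 and 5 without control replicate 2, and 0 and 2 without either Hnrnpk siRNA replicate. Cdc42bpa, a kinase, had a log2 change of -0.70 and Cdc14a, a phosphatase, one of 0.26.

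Genes that guard against or drive ferroptosis, a death by iron-dependent lipid oxidation, were called higher in 6 of 14 and lower in 3 (equal sums: 5 and 5; quantile normalization: 5 and 4), with a median of 0.063. Gss, glutathione synthetase, rose from 3.39 ± 0.127 to 9.67 ± 0.591 RPKM, and the small heat shock protein Hspb1 from 127 ± 4.32 to 373 ± 8.59 RPKM (SD, n = 2 each), and the log2 changes were 1.38 and 1.55. Gclm, a subunit of the enzyme before Gss, and Gpx4, which reduces lipid peroxides, had log2 changes of 0.59 and 0.52. The lipid-oxidizing enzyme Alox15 had one of -0.59. Hspb1 and Gpx4 share 72.6% and 73.7% of their transcripts with other genes.

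Markers of other cell types moved between the groups, and in bulk RNA a change in the share of cells and a change within cells cannot be told apart. Of the tested primitive endoderm markers 6 of 7 were called higher, beside 32.2% of all tested genes. The list summed to 21.3 to 22.3 RPKM after control siRNA and 63.2 to 65.2 RPKM after Hnrnpk siRNA. In it Gata6 went from 0.643 to 13.9 RPKM and Col4a1 from 6.69 to 23.1 RPKM (group means). Lama1 was not called, and Afp and Ttr were near 0. The filter averages both groups, so Pdgfra (0.170 to 0.898 RPKM, group means) was tested only through its Hnrnpk siRNA values. Sox17 and Foxa2, higher after Hnrnpk siRNA, and Apoa1, lower, were too low to test. All 6 tested trophectoderm markers were called higher, at a summed 31.9 to 37.4 and 72.5 to 77.6 RPKM. Of those too low to test, Cdx2 and Krt7 were higher after Hnrnpk siRNA, and Elf5 fell from 0.107 to 0.0656 RPKM (group means). The fibroblast list, with 1 of 4 called higher and 3 lower, went from 90.6 to 104 RPKM to 125 to 128 RPKM, nearly all of it Vim. Among those called lower, Acta2 (0.806 to 0.435 RPKM, group means) passed the filter only through the controls. Erythroid markers, with 2 of 4 called each way, summed to 6.06 to 6.58 RPKM over all libraries, with Hbb-b1 and Hbb-b2 at 0. Of those 4, Hba-a1 (0.339 to 1.81 RPKM, group means) passed the filter only through Hnrnpk siRNA. Klf1 (0.872 to 0.470 RPKM) passed it only through the controls. The macrophage list went from a summed 10.6 to 11.8 RPKM to 47.6 to 48.03 RPKM, almost all of it the lysosomal gene Cd68, while Ptprc, Csf1r and Lyz2 were at 0.0383 RPKM or below in every library. Also too low to test, Itgam fell from 0.418 to 0.0660 RPKM and Cd14 was at 0.430 and 0.427 RPKM (group means). The part of these cell types in the changes of the iron genes was not tested.

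**Figure D4:**
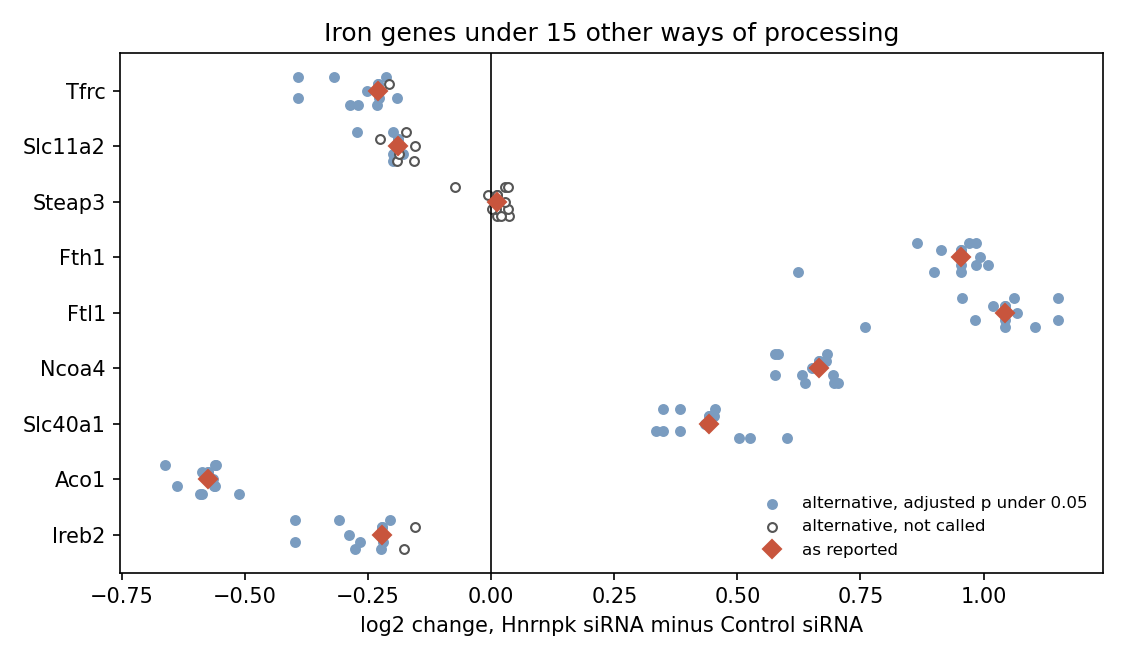
Log2 change of each iron gene as reported (red diamond) and under 15 other ways of processing (filled where the adjusted p is under 0.05, open where not). The changes of Fth1, Ftl1, Ncoa4, Slc40a1 and Aco1 are called under all 15, and open points appear for Tfrc, Slc11a2, Steap3 and Ireb2.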

How the data were processed

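RNA-seq of 4 libraries was analysed from 1 table of RPKM values per gene that the authors deposited, with 1 column per library. The submitters' processing notes name BWA, SAMtools and the build mm9; for the counter, the annotation and the handling of multiply mapping reads, nothing is stated (not given in the sources used here). Per the labels' protocols, ribosomal RNA was depleted in one place and poly(A) RNA selected in another. Positions, transcripts and GC content came from GENCODE M21 on GRCm38, matched by identifier (92.8% of 22138 identifiers), and no coordinates were converted.

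RPKM values are not counts, so limma 3.58.1 (R 4.3.3, variance trend on) was fitted to log2(RPKM + 0.5) for the 12486 genes averaging 0.5 RPKM or more. Benjamini-Hochberg adjustment ran over all of them, and 8396 passed 0.05 (8776 at an unadjusted p under 0.05). The fit was tested on simulated data. Relative depth was the commonest ratio between low values of 2 libraries. Shared transcript sequence was found with BLAST 2.17.0 (identity from 95%, length from 100 bases).

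The 9 genes and the lists were chosen with earlier results of these data known. Named beyond the 9 are Hnrnpk, other list members called with a change past 1 on the log2 scale, up to 3 further called members per list by lowest p, and Hmox1, Tf, Fbxl5, Pcbp1 and Pcbp2. Marker lists name up to 3 genes of highest mean RPKM, and 5 genes are named as nearest to Ftl1. Genes with a match to the hairpin pattern, copies, neighbours and further markers were named after their values were seen. List genes whose symbols were not matched were not analysed here. 1 gene that the naming rule selects is not reported here. Alternatives were other added values, filters and scalings, GC trends removed, no variance trend, a replicate block, and each library left out; equal RPKM sums were added after the data were seen.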

Additional observations from a re-analysis of the deposited data

How the results depend on the processing

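The calls of Fth1, Ftl1, Ncoa4, Slc40a1 and Aco1 kept their direction and their side of the threshold under all 15 alternatives, and Steap3 was called under none of them. Across these the log2 change was 0.62 to 1.01 for Fth1, 0.76 to 1.15 for Ftl1, 0.58 to 0.70 for Ncoa4, 0.33 to 0.60 for Slc40a1 and -0.66 to -0.51 for Aco1. Slc11a2 was not called without a filter on low values (-0.19), under median ratio scaling (-0.17) or under quantile normalization (-0.16). With each library left out in turn, its log2 change was -0.23 to -0.15 and not called in any of the 4 fits. In the same fits Tfrc had -0.27 to -0.19 and Ireb2 -0.29 to -0.15, and the number of the 9 genes called lower was 1 to 3, with 1 without Hnrnpk siRNA replicate 2 and 2 without control replicate 1. These fits have fewer samples; where an arm held 1 library, it was assumed to vary like the other. With equal RPKM sums, 37 genes of the other iron lists were called lower in place of 24. Replicate numbers do not pair these libraries by any label, and the deviations of same-numbered libraries correlated at 0.0267. With the number as a replicate block, the 9 genes still gave 4 higher and 4 lower, the other lists 40 and 26, and over all genes 4162 were called higher and 4460 lower against 4025 and 4371. Depth limits Slc40a1 most, at about 1 RPKM; absolute read counts were not used here.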
